A study of Rattus with 18 samples.

Results

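Rat glomeruli on day 5 of anti-Thy1 nephritis were compared with glomeruli on day 3. The pair of days was chosen to look for a decline of infiltration and cell division. The comparison uses 6 of the 18 arrays of the series, chosen by their titles: the 3 arrays of rats killed on day 5 and the 3 arrays of rats killed on day 3, all scanned on scan day 1. Rats were of the SD (Sprague-Dawley) strain and weighed 200 g. Both groups had received an anti-Thy1 antibody, as had 30 rats in all, and 6 further rats received saline and stand as day 0. Per the labels, 3 glomeruli from each of 6 rats were taken at a time point, and 1.65 µg of RNA was amplified and labelled with Cy3 for arrays of 1 colour. How rats were assigned to arrays is not stated, so a p-value here measures the spread between arrays, and some of that spread may be technical. Array names give the day and the number in the title: replicates 2, 4 and 5 on day 5, and replicates 2, 3 and 4 on day 3.

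Thy1 is a surface protein of rat mesangial cells, contractile cells that support the glomerular capillaries from within. Antibody bound to it fixes complement and lyses these cells, and leukocytes, chiefly monocytes and macrophages, enter the tuft. Surviving mesangial cells then divide, take on contractile proteins and deposit matrix before the lesion resolves.

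A level below is the log2 processed intensity of a probe minus the 75th percentile of its array, so 0 is that percentile. A difference is the mean level on day 5 minus the mean level on day 3, with its standard error (SE) from a limma fit and n = 3 arrays a day. For each gene the fit pools the spread within days over all 18 arrays. Where day 5 arrays spread more widely than other days, as for mitosis and macrophage genes, SE and p can be too small. Adjusted p is Benjamini-Hochberg over all 23177 genes tested, and a gene is said to have risen or fallen only where it is under 0.05. In whole-tissue RNA, fewer cells of a type and less RNA per cell cannot be told apart. The first 30 bases of 4 probes of 60 bases are shown, 5′ to 3′, from the deposited probe annotation. The first pair are the probes that passed the test, 1 in each direction, and the others stand for cell division and macrophages.
Sult5a1, chr19:53472826-53472885, minus strand, build rn4: actttactcctgagctgaatgaaaagttca
A_44_P415155, chr7:23549764-23549823, minus strand, build rn4: aattttgtcacattcatgcctcctgtgaat
Mki67, chr1:195310355-195313039, minus strand, build rn4: ccaagagtaactcgaggggccaagaaagat
Gpnmb, chr4:77182198-77182257, plus strand, build rn4: gtgagctgtgcagaagtacatgactggtag

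The 6 arrays had 63.6% to 67.4% of probes well above background and 75th percentiles of 252 to 362 intensity units, with no saturated probe. Glomerular markers were well measured. Nephrin (Nphs1), a protein of the podocyte slit diaphragm, lay at 5.32, 5.03 and 4.70 on day 5 and at 4.65, 4.74 and 4.86 on day 3. Tubular markers were present too: uromodulin (Umod), which the thick ascending limb secretes, lay between 7.87 and 8.76 over the 6 arrays, and megalin (Lrp2), an endocytic receptor of the proximal tubule, lay between 5.37 and 6.41. The 3 day 5 arrays and day 3 replicate 4 shared slide 3, and day 3 replicates 2 and 3 were on slide 2. A difference within slide 3 therefore sets the day 5 mean against 1 day 3 array. The fit with slide as a fixed block gives this same difference and rests on that 1 array for day 3, with the spread taken from the other arrays.

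Day 5 replicate 5 stood apart from the other day 5 arrays. Across genes, which are not independent replicates, its Pearson correlation was 0.979 to 0.984 with the day 3 arrays, against 0.965 to 0.970 with day 5 replicates 2 and 4, and those correlated at 0.983 with each other. Measured against the day 3 mean, 1614 genes lay 1 or more log2 units lower on day 5 replicate 2 and 1610 on replicate 4, but 533 on replicate 5. Genes 1 or more log2 units higher numbered 802, 1314 and 457 on replicates 2, 4 and 5. It was used under its label, and neither a wrong label nor any other source of the difference was tested. Results are given with and without it. Leaving out the day 5 array nearest to day 3 enlarges differences and adds calls by its construction, so values without replicate 5 describe the other arrays and support no change.

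With all arrays, 2 of 23177 genes passed the test (0.00863% of genes), 1 in each direction. At an unadjusted p under 0.05, 1563 genes were lower on day 5 (6.74%) and 1499 were higher (6.47%). Without day 5 replicate 5, 918 genes passed (3.96%), 657 of them lower (2.83%) and 261 higher (1.13%). Leaving out another array also moved the count: 39 genes passed without day 3 replicate 2, 117 without day 3 replicate 4, 3 without day 5 replicate 2, 1 without day 3 replicate 3 and 0 without day 5 replicate 4, where 1654 genes had an unadjusted p under 0.05.

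Sult5a1, a member of the cytosolic sulfotransferase family, rose. Its level was −2.20, −1.72 and −2.15 on day 5, against −4.03, −3.55 and −3.94 on day 3. Every day 5 array lay above every day 3 array. The difference was 1.81 ± 0.22 (SE, 95% interval 1.35 to 2.28), or 3.51-fold, with an adjusted p of 0.013 in limma. The call was lost without day 5 replicate 4 (difference 1.66, adjusted p 0.14), in a fit of the 6 arrays alone (0.27), with slide as a fixed block (0.067), with the authors' deposited values (0.053) and under a normexp background correction (difference 1.18, adjusted p 0.38). It was also lost with the replicate number as a block (adjusted p 0.16 in limma). On day 0 the Sult5a1 level was −2.68. The transcript under probe A_44_P415155, which the files do not name, fell. Its level was −5.40, −5.33 and −4.95 on day 5, where no array was well above background, against −3.24, −3.25 and −3.43 on day 3, where all 3 were. With day 5 values raised to no less than the lowest signal well above background on their array, it was 3.03-fold lower on day 5. That is not a strict bound, as its value on replicate 5 lay above that lowest signal of −5.30. The day 0 level of this transcript was −1.93. Its adjusted p of 0.0401 in limma rests on day 5 signals that were not well above background. Without day 5 replicate 2, day 5 replicate 4 or day 3 replicate 3 its adjusted p was 0.12, 0.36 and 0.22. With the replicate number as a block in limma it was 0.20. The call on A_44_P415155 was also lost under quantile normalization (0.076), scaling to the reference genes (0.089), no filter on dim probes (0.077), the 6 arrays alone (0.12), slide as a fixed block (0.17) and the deposited values (0.17), and under normexp its difference turned to 0.37.

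The next genes by p are given as values, since none passed. Dnase1l3, a secreted DNase made by macrophages and dendritic cells, had levels of −3.06, −3.67 and −0.95 on day 5, against 0.70, 1.51 and 1.62 on day 3, a difference of −3.84 ± 0.65 with an adjusted p of 0.089. Day 5 replicate 5 was the highest of its day and still below day 3. The difference was −3.59 without replicate 2 and −4.64 without replicate 5. Pirb, an inhibitory immunoglobulin-like receptor of myeloid and B cells, lay at −0.82, −1.06 and −0.45 on day 5, against 1.12, 0.61 and 0.93 on day 3 (adjusted p 0.089). Hmga1, an architectural chromatin protein of dividing cells, lay at −1.97, −1.98 and −1.60 on day 5, against −0.19, −0.62 and −0.99 on day 3 (adjusted p 0.089). For these genes the days did not overlap. Lower on day 5 as well were Colq, the collagen tail of acetylcholinesterase, with a difference of −2.87 ± 0.46, well above background on 2 of 3 day 5 arrays, and Acot7, an acyl-CoA thioesterase, at −1.01 ± 0.18. Among the genes that were higher, Dnah9, a heavy chain of axonemal dynein, lay at −1.66, −1.81 and −1.99 on day 5, against −4.44, −4.49 and −4.32 on day 3, with an adjusted p of 0.084. Cdh11, a cadherin of mesenchymal cells, lay at −2.71, −1.95 and −2.63 on day 5, against −3.72, −3.41 and −3.72 on day 3, and its 3 probes gave differences of 1.19 to 2.23. The LIM-domain protein gene Pdlim3 differed by 1.38 ± 0.23 and the coiled-coil gene Ccdc138 by 0.91 ± 0.18, also with no overlap of the days.

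A set of 33 gene lists holds 738 genes, of which 648 were tested, 53 had no probe well above background on all arrays of any day, and the rest had no probe under their symbol or name. In limma, 0 of the 648 passed. At an unadjusted p under 0.05, 176 of them were lower on day 5 and 45 were higher, against 6.74% and 6.47% of all genes. All 3 day 5 arrays lay below all 3 day 3 arrays for 97 of the 648, against 1415 of 23177 genes (6.11%). They lay above them for 55 of the 648, against 2398 of 23177 genes (10.3%). Counts within each list below are to be read beside these shares of all genes. A single day 5 array has other shares. Of all genes, 25.9%, 24.9% and 23.9% lay below all 3 day 3 arrays on replicates 2, 4 and 5. Above all 3 lay 37%, 42% and 24.6%. In either direction, 7.88% of all genes had an unadjusted p under 0.05 without day 5 replicate 2, and 7.94% did under normexp. The median difference over all genes was 0.06, with 9936 genes lower and 13241 higher. Under normexp that median was 0.28, and list medians given below under normexp are to be read beside it. Without day 5 replicate 5, 109 list genes passed as lower and 5 as higher, against 1 and 0 list genes in all without day 5 replicates 2 and 4.

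**Figure D1:**
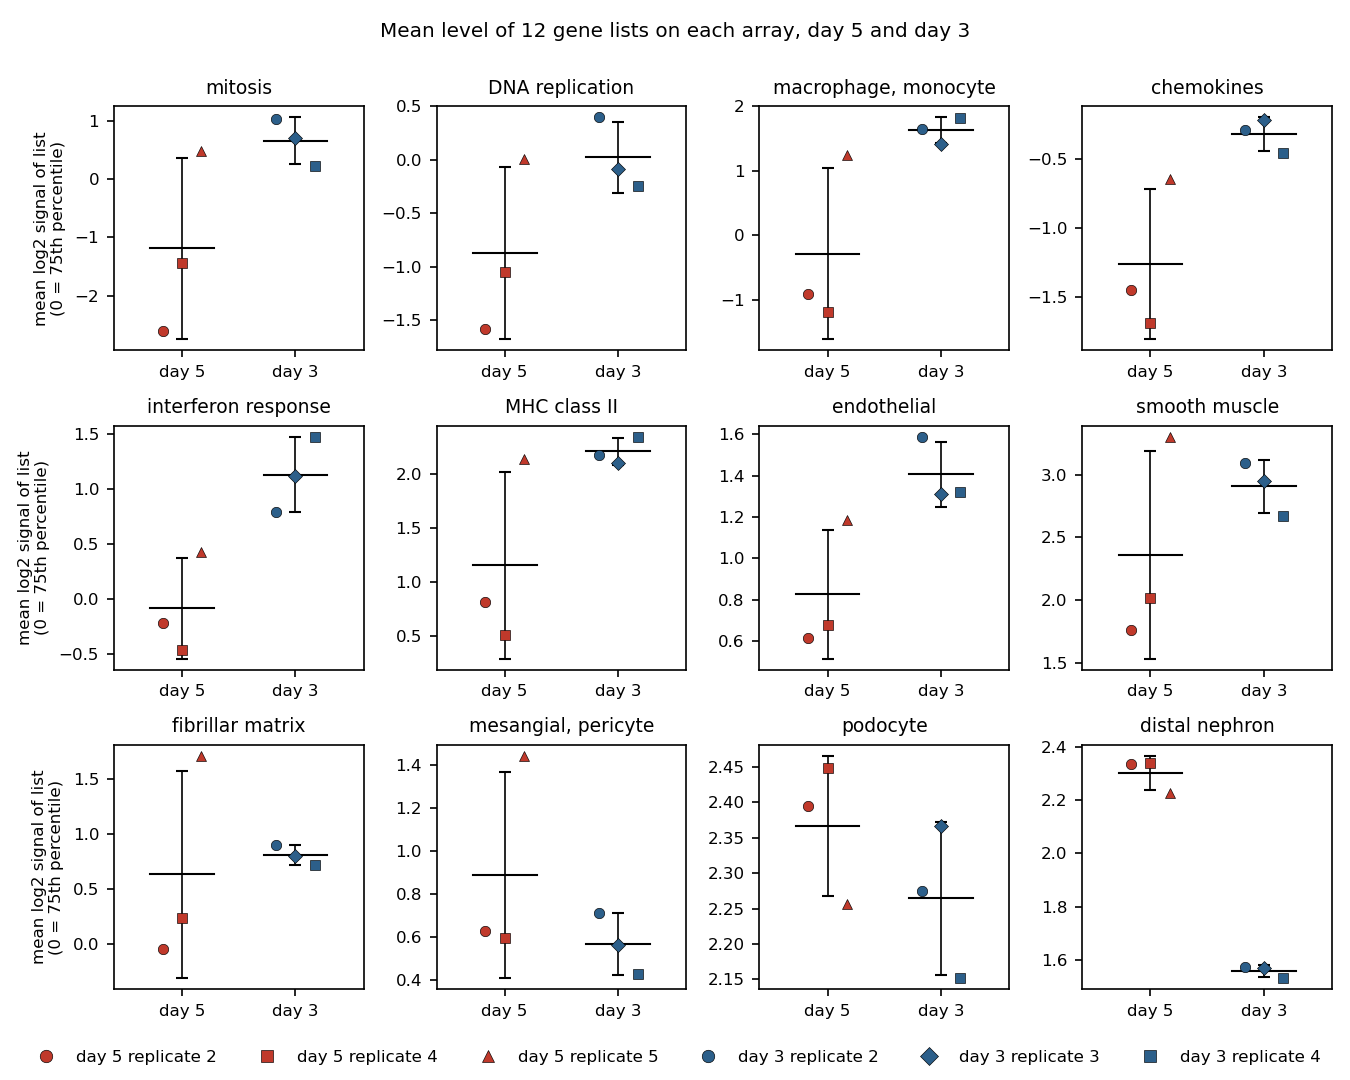
Mean level of the tested members of 12 gene lists on each array (y axis, log2 processed intensity minus the 75th percentile), with day 5 left of day 3; the symbol gives the replicate, the line the mean and the bars the SD. Day 5 replicates 2 and 4 sit below day 3 for mitosis and macrophage genes and replicate 5 sits near day 3, while all 3 day 5 arrays sit above day 3 for the distal nephron.

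Genes of mitosis were lower on 2 day 5 arrays and near their day 3 level on the third. The mean over the 31 tested of 35 mitosis genes was −2.62, −1.43 and 0.48 on day 5 replicates 2, 4 and 5, against 1.04, 0.71 and 0.23 on day 3. Replicate 5 lay inside the day 3 range and the other 2 arrays lay well below it. The median difference was −2.0, all 31 genes had a lower mean on day 5, and 29 had an unadjusted p under 0.05, with none passing after adjustment. That count rests on the spread pooled over all 18 arrays. The SD of the list mean was 1.56 on day 5, against 0.40 on day 3 and 0.14 on day 0. Only 5 had every day 5 array below every day 3 array. Set singly against the day 3 mean, the arrays gave list medians of −3.55 for replicate 2, −2.32 for replicate 4 and −0.18 for replicate 5. The mitosis median was −1.14 without replicate 2, with 5 genes at an unadjusted p under 0.05, and −2.93 without replicate 5, when 26 passed. With slide as a fixed block it was −1.43.

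Mki67, the proliferation antigen that coats mitotic chromosomes, had levels of −1.48, −0.66 and 1.63 on day 5, against 2.74, 2.31 and 1.14 on day 3. Replicate 5 lay between the day 3 arrays. The difference was −2.24 ± 0.68 with an adjusted p of 0.21, and it was −1.58 without replicate 2 and −3.14 without replicate 5. Cdk1, the kinase that drives entry into mitosis, had levels of 1.54, 2.83 and 5.27 on day 5, against 5.59, 5.28 and 4.60 on day 3. Here too replicate 5 lay within day 3 (difference −1.94 ± 0.77, adjusted p 0.30), and the difference was −1.10 without replicate 2 and −2.97 without replicate 5. Its partner cyclin B2 (Ccnb2) lay at −2.90, −1.52 and 0.61 on day 5, against 1.20, 0.81 and 0.39 on day 3, and the chromosome-untangling enzyme Top2a at −2.74, −1.12 and 0.81, against 1.32, 1.09 and 0.55. Both had the same order of arrays, with adjusted p of 0.28. Without replicate 2 they differed by −1.25 for Ccnb2 and −1.14 for Top2a, and without replicate 5 by −3.01 and −2.91. Prc1, which bundles the microtubules of the central spindle, lay at −4.03, −2.54 and −0.64 on day 5, against 0.34, −0.03 and −0.45 on day 3, and was one of the genes with no overlap. Birc5, a subunit of the chromosomal passenger complex, was another, at −1.34, 0.29 and 1.34 on day 5, against 2.29, 1.94 and 1.57 on day 3. The mitotic kinases Aurka and Plk1 differed by −1.73 and −1.69 and the anaphase activator Cdc20 by −0.99, with adjusted p of 0.19, 0.30 and 0.39.

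**Figure D2:**
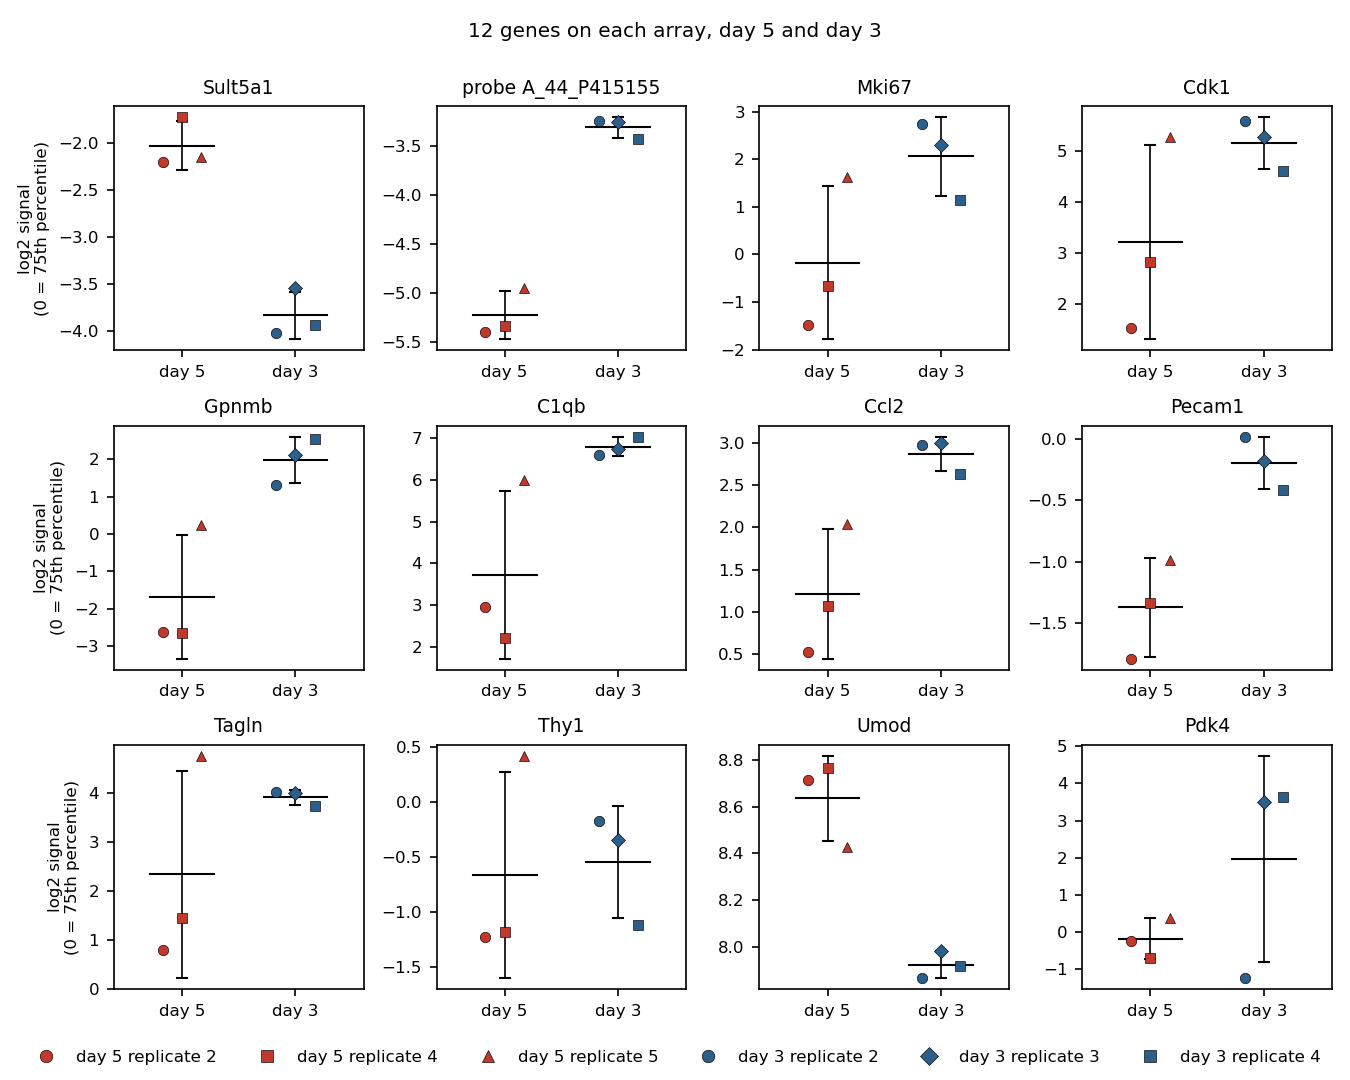
Level of 12 genes on each array (y axis, log2 processed intensity minus the 75th percentile), day 5 left of day 3, with the symbol giving the replicate, the line the mean and the bars the SD. Sult5a1 and A_44_P415155 show groups that do not overlap, whereas Mki67, Cdk1 and Tagln show day 5 replicate 5 at the level of day 3.

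DNA replication genes had smaller differences and the same split among the arrays. Their mean level was −1.58, −1.05 and 0.00 on day 5, against 0.40, −0.09 and −0.24 on day 3, so replicate 5 lay inside the day 3 range. Of 27 tested genes all had a lower day 5 mean and 9 had an unadjusted p under 0.05. Only 1 had every day 5 array below every day 3 array, against 6.11% of all genes. At the median they differed by −0.73. Without replicate 2 that was −0.49, with 0 of 27 at an unadjusted p under 0.05, and without replicate 5 it was −1.27, when 7 passed. With slide as a fixed block the median was −0.48. Mcm5, a subunit of the replicative helicase, lay at −5.43, −4.33 and −2.77 on day 5, well above background on 2 of the 3 arrays, against −2.29, −3.0 and −2.83 on day 3. Pcna, the sliding clamp of the polymerases, lay at 2.53, 2.77 and 3.90, against 4.26, 3.78 and 3.23. Neither passed, with adjusted p of 0.38 for Mcm5 and 0.42 for Pcna, and neither did thymidylate synthase (Tyms), at −1.29, −1.30 and 0.51 on day 5, against 1.16, 0.64 and −0.06 on day 3. The licensing factor Cdc6 was well above background on 1 of 3 day 5 arrays and on all day 3 arrays.

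Of 16 tested genes of the G1 to S transition, 5 were lower and 1 was higher at an unadjusted p under 0.05, against 6.74% and 6.47% of all genes. The median difference was −0.36. That median was −0.22 without day 5 replicate 2, −0.19 with slide as a fixed block and −0.24 with a filter on days 3 and 5. Cyclin E1 (Ccne1), which drives entry into S phase, lay at −2.61, −1.37 and 0.18 on day 5, against 0.77, 0.35 and 0.04 on day 3, with replicate 5 inside the day 3 range. The kinase inhibitor p21 (Cdkn1a) lay at 0.54, 0.45 and 2.79 on day 5, against 1.84, 2.36 and 2.63 on day 3, so replicate 5 was the highest of the 6. The difference of −1.02 ± 0.48 in Cdkn1a was −0.66 without replicate 2 and −1.79 without replicate 5. The inhibitor p57 (Cdkn1c), which resting podocytes express, differed by 0.43 with an adjusted p of 0.37. Its level was 7.32, 7.19 and 6.69 on day 5, against 6.55, 6.75 and 6.62 on day 3.

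Macrophage and monocyte genes were lower on day 5, and for most of them replicate 5 also lay below day 3, by less than the other arrays. The mean over the 24 tested of 28 genes was −0.91, −1.19 and 1.24 on day 5, against 1.64, 1.42 and 1.82 on day 3, with no overlap. All 24 had a lower day 5 mean, 20 had an unadjusted p under 0.05 and 16 had no overlap between the days. The median difference was −1.91, and single arrays gave medians of −2.47, −2.87 and −0.49 for replicates 2, 4 and 5 against the day 3 mean. The macrophage median was −1.67 without replicate 2, with 17 genes at an unadjusted p under 0.05 and 0 passing, −2.67 without replicate 5, when 18 passed, and −1.94 with slide as a fixed block.

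Gpnmb, a lysosomal glycoprotein of phagocytic macrophages, had the most negative difference among the markers named whatever their values. Its level was −2.61, −2.66 and 0.24 on day 5, against 1.30, 2.10 and 2.53 on day 3, and the day 0 mean was −3.49. The groups did not overlap. The mean difference was −3.66 ± 0.90, a 12.6-fold lower signal, with an adjusted p of 0.14 in limma, and it was −3.19 without replicate 2 and −4.61 without replicate 5. The mannose receptor Mrc1, which marks tissue macrophages, lay at −3.52, −3.81 and −0.50 on day 5, against 0.30, 0.36 and 0.72 on day 3. Day 5 replicate 5 was far above its day mates and below every day 3 array, with an adjusted p of 0.14 for the difference of −3.07 ± 0.75. Cd68, the lysosomal marker used to stain macrophages, lay at 0.86, 0.32 and 2.54, against 2.87, 2.80 and 4.03 on day 3, a difference of −1.99 ± 0.56. The rodent macrophage marker Adgre1 (F4/80) lay at −1.39, −1.78 and 0.49, against 1.35, 1.10 and 1.13 on day 3, and Aif1, an actin-binding protein of macrophages, at 2.28, 1.85 and 4.80, against 5.07, 5.03 and 5.09. Csf1r, the receptor for the macrophage growth factor, was close to separation, with −1.91, −1.80 and −0.68 on day 5 and −0.19, −0.72 and −0.01 on day 3, where 1 day 3 array lay below replicate 5. Cd44, a hyaluronan receptor of leukocytes and injured cells, lay at −0.34, −0.18 and 1.02, against 1.54, 1.71 and 1.32 on day 3, with an adjusted p of 0.13.

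The complement list had a median difference of −0.06, and its members ranged widely. Of 18 tested, 10 had a lower and 8 a higher day 5 mean, and the genes named here are all among the lower. Every day 5 array lay below day 3 for 4 of the 18 and above it for 1, against 6.11% and 10.3% of all genes. C1q, the recognition unit of the classical pathway, is made by macrophages. C1qb lay at 2.95, 2.22 and 6.0 on day 5, against 6.59, 6.74 and 7.03 on day 3, with no overlap, a difference of −3.07 ± 0.80 and an adjusted p of 0.16. Its partner chain C1qc differed by −2.99 with an adjusted p of 0.15. Without replicate 2 they differed by −2.68 for C1qb and −2.54 for C1qc, and without replicate 5 by −4.20 and −4.09. Properdin (Cfp), which stabilises the alternative convertase, lay at −1.56, −1.64 and 0.32, against 1.06, 1.27 and 1.84 on day 3. Factor D (Cfd), the protease of that pathway, lay at −1.66, −1.96 and 2.49, against 2.96, 2.97 and 2.34, with replicate 5 inside the day 3 range. Of the 18 complement genes tested, 5 were lower and 1 was higher at an unadjusted p under 0.05, against 6.74% and 6.47% of all genes.

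Receptors for the Fc part of antibodies, through which leukocytes bind immune complexes, and their kinases were lower on day 5 in 15 of 16 tested genes. Of these, 12 had an unadjusted p under 0.05 and 11 had no overlap. Their median was −1.27, but −0.69 under normexp, with 7 at an unadjusted p under 0.05. It was −1.19 without replicate 2 and −1.66 without replicate 5, when 8 of 16 passed. Fcgr1a, the high-affinity receptor, lay at 2.00, 1.62 and 3.78 on day 5, against 4.33, 4.32 and 4.55 on day 3. Btk, a kinase downstream of immune receptors, lay at −4.76, −4.63 and −3.52, against −2.28, −2.06 and −2.25, with an adjusted p of 0.09. All 3 day 5 arrays were below day 3 for both genes, and Btk was well above background on 2 of the 3.

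Chemokines and their receptors, which recruit leukocytes, were lower on day 5 for the most part. Of 28 tested, 21 had a lower day 5 mean, and 14 were lower and 1 was higher at an unadjusted p under 0.05. The median difference was −1.18, a value that came to 0.04 under the normexp background correction, and −0.67 within slide 3. Ccl2, the main monocyte attractant, lay at 0.53, 1.07 and 2.04 on day 5, against 2.97, 3.0 and 2.63 on day 3, with no overlap, a difference of −1.65 ± 0.47 and an adjusted p of 0.19. The Ccl2 difference was −1.31 without replicate 2 and −2.06 without replicate 5. Ccl6, a chemokine of myeloid cells in rodents, lay at 1.33, 0.92 and 3.45 on day 5, against 3.52, 3.67 and 4.27 on day 3. The receptor Ccr1 was well above background on 1 of 3 day 5 arrays. Ccl20, a ligand for dendritic and T cells, lay at −3.76, −3.83 and −3.03 on day 5, against −3.01, −1.03 and −0.64 on day 3, where replicate 2 was as low as day 5. Cx3cl1 (fractalkine), a membrane-bound chemokine of endothelial cells, differed by −0.06 ± 0.18 and lay between 4.22 and 4.40 on all 6 arrays. Cxcl13, a B cell attractant, was higher on day 5 on every array, at 1.52, 1.33 and 2.12, against 0.59, −0.47 and −0.50, with an adjusted p of 0.25.

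Cytokines and adhesion molecules were lower on day 5 in 12 of 13 tested genes, and 10 further members had no probe well above background on all arrays of any day. Interleukin 1β (Il1b), an early inflammatory cytokine, lay at 0.64, −0.61 and 0.05 on day 5, against 1.61, 0.98 and 0.45 on day 3, and the groups overlapped. Icam1, an endothelial ligand for leukocyte integrins, lay at 1.65, 1.60 and 1.76, against 2.12, 2.30 and 2.55, with no overlap and an adjusted p of 0.23. Vcam1, the ligand for monocyte and lymphocyte integrins, lay at 2.73, 2.35 and 3.91, against 4.09, 4.10 and 3.96, also with no overlap. The integrin subunit Itgal, part of the receptor for Icam1, was well above background on 1 of 3 day 5 arrays and on all 3 day 3 arrays. Osteopontin (Spp1), a secreted attractant of macrophages that tubules and macrophages make, was the member that was higher, at 4.42, 5.43 and 4.45 on day 5, against 2.79, 3.50 and 3.97 on day 3.

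Genes of MHC class II, which present antigen on macrophages, dendritic cells and B cells, lay at mean levels of 0.81, 0.51 and 2.14 on day 5, against 2.18, 2.10 and 2.35 on day 3. Replicate 5 lay within the day 3 range, and the median difference over the 6 tested genes was −1.04, with 5 lower at an unadjusted p under 0.05. Cd74, the invariant chain that escorts class II molecules, lay at 4.81, 4.06 and 5.64, against 5.53, 5.65 and 5.87 on day 3, with a difference of −0.85 ± 0.33 that was −0.84 without replicate 2 and −1.25 without replicate 5. The class II chain RT1-Da lay at 2.82, 2.65 and 4.84, against 4.74, 4.66 and 4.81, so that replicate 5 was the highest of the 6.

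Lymphocyte and NK cell genes had a median difference of −1.09 over 18 tested of 25, with 8 lower at an unadjusted p under 0.05 and 2 with no overlap. Granzyme B (Gzmb), a killing protease of cytotoxic lymphocytes, lay at −2.27, −2.39 and −0.02 on day 5, against 0.58, 0.84 and −0.03 on day 3, and the pore-forming perforin (Prf1) at −0.69, −1.32 and 1.01, against 2.07, 1.68 and 0.89. Replicate 5 was level with day 3 replicate 4 for both. The B cell markers Cd79a and Ms4a1 were not well above background on all arrays of any day, and the list median was −0.57 under normexp and −0.47 within slide 3. At an unadjusted p under 0.05, 3 of the 18 were lower without day 5 replicate 2, against 7.88% of all genes in either direction.

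Neutrophil genes were mostly dim. Only 6 of 13 could be tested, and 7 were dim, among them the defining receptor Cxcr2 and the granule enzymes Mpo and Elane. Of the 6, 4 had higher and 2 had lower day 5 means, with 1 higher at an unadjusted p under 0.05. The median difference of 0.48 was −0.17 with no filter on dim probes, 1.03 within slide 3, 0.83 without day 3 replicate 2 and 0.0002 without day 3 replicate 4. The calprotectin subunits S100a8 and S100a9 are abundant in neutrophils and also made by monocytes. S100a8 lay at 1.36, 0.68 and 0.52 on day 5, against 0.41, −0.15 and −1.44 on day 3, and S100a9 at 2.56, 1.46 and 1.56, against 1.22, 0.83 and −0.20. For both the days did not overlap, and the adjusted p was 0.37 for S100a8 and 0.38 for S100a9. The members with lower day 5 means were lipocalin 2 (Lcn2), a siderophore-binding protein, at 0.34, −2.81 and −1.34 on day 5, against −1.53, 0.01 and −0.05 on day 3, and the gelatinase Mmp9, at −0.07, −0.63 and −2.64, against −0.53, −1.17 and −0.18. Both overlapped.

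Genes that respond to interferon were lower on day 5 in all 24 tested of 25. Replicate 5 lay below every day 3 array for 16 of them, against 23.9% of all genes. The mean level was −0.21, −0.46 and 0.42 on day 5, against 0.79, 1.12 and 1.47 on day 3, with no overlap. At a median difference of −1.14, 19 genes had an unadjusted p under 0.05, 16 had no overlap, and 9 passed without replicate 5. Under normexp the median was −0.77, with 12 at an unadjusted p under 0.05. Single arrays gave medians of −1.38, −1.65 and −0.58 against the day 3 mean. Gbp2, an interferon-induced GTPase, lay at 3.11, 3.02 and 4.50, against 4.81, 4.94 and 5.13 on day 3, with an adjusted p of 0.17. Isg15, a ubiquitin-like modifier, lay at 2.26, 2.09 and 3.20, against 3.15, 3.88 and 4.28, where replicate 5 overlapped day 3 replicate 2. Ifit1, which binds foreign RNA ends, was well above background on 1 of 3 day 5 arrays, with levels of −4.69, −7.18 and −7.56, against −3.61, −2.77 and −2.72 on day 3. A fitted difference of Ifit1 would rest on signals below background and is not given.

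**Figure D3:**
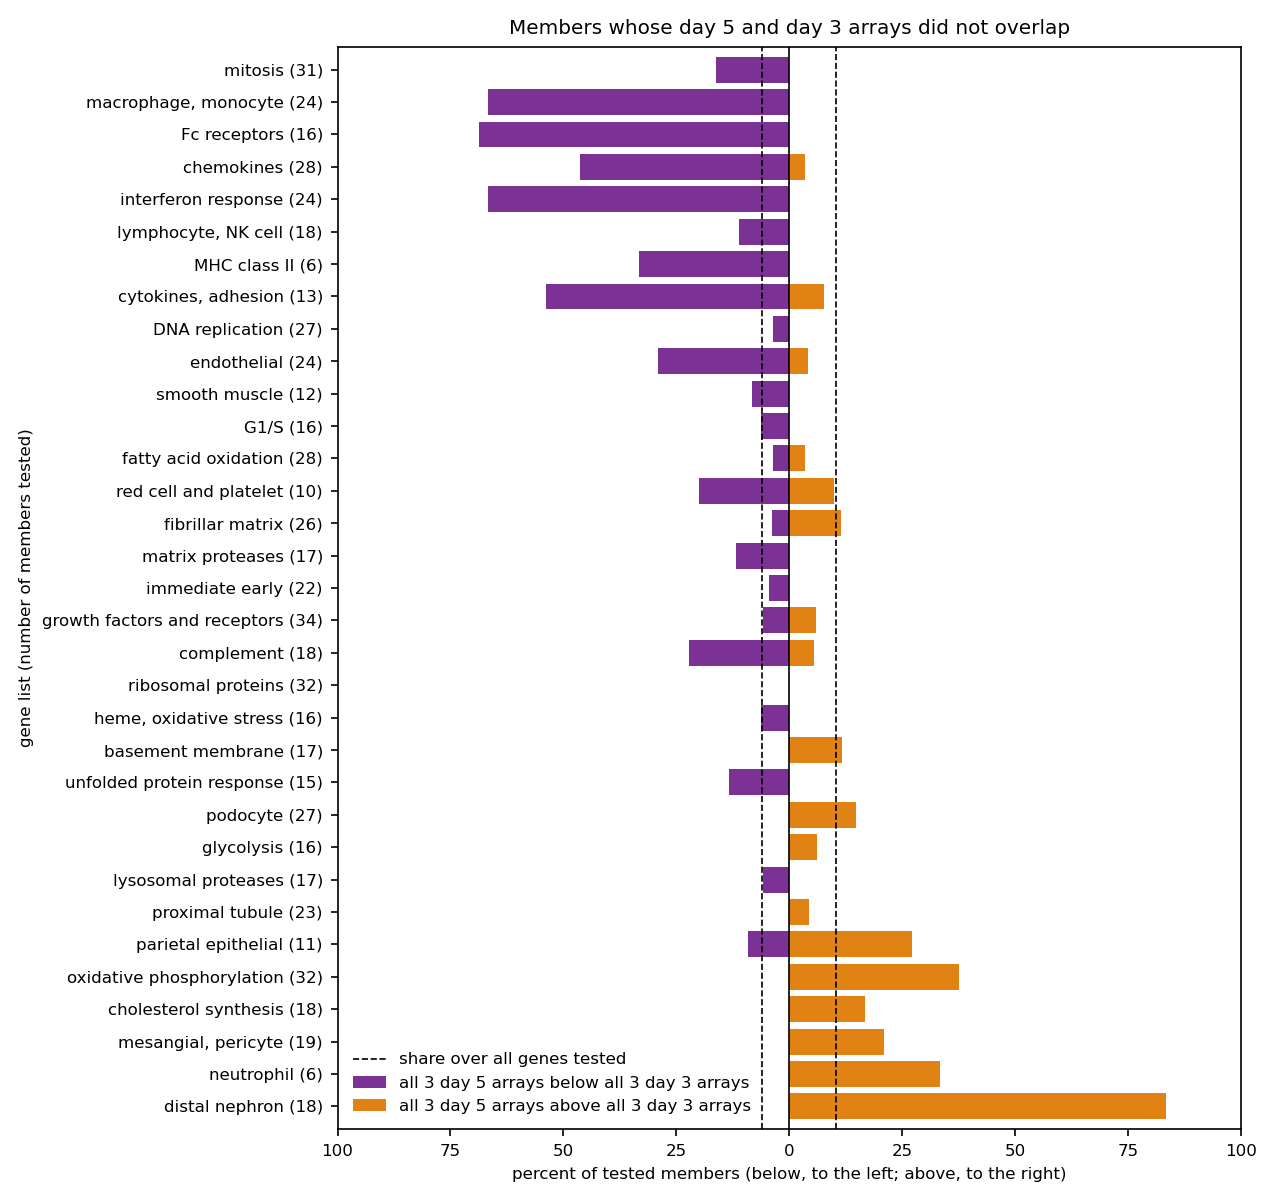
Share of the tested members of each of 33 gene lists (x axis, percent) whose 3 day 5 arrays all lay below (left) or all lay above (right) the 3 day 3 arrays; dashed lines give the same share over all genes, 6.11% and 10.3%. Macrophage, Fc receptor and interferon genes reach far past the dashed line on the left, and the distal nephron does so on the right.

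**Figure D4:**
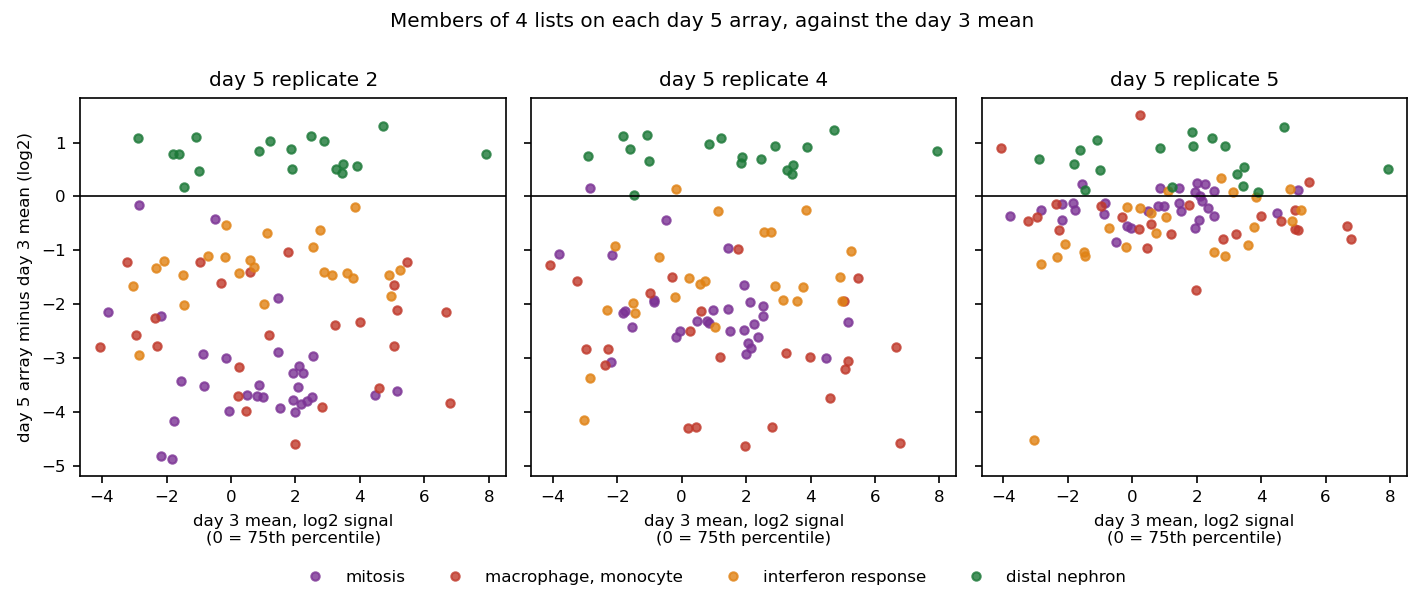
Level of each tested member of the mitosis, macrophage, interferon and distal nephron lists on 1 day 5 array minus its day 3 mean (y axis, log2) against its day 3 mean (x axis, log2 level), with a panel for day 5 replicates 2, 4 and 5. Mitosis genes lie near the zero line on replicate 5 (median −0.18) and mostly far below it on replicates 2 and 4, while distal nephron genes lie above it in all panels.

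Early response genes differed little as a list, with a median of −0.12 over 22 tested genes. Fos, an AP-1 subunit induced within minutes of a stimulus, lay at −1.19, −3.82 and −0.90 on day 5, against −1.09, −1.50 and −1.34 on day 3. Its single low array was day 5 replicate 4, without which the difference was 0.27. Fosl1, a later AP-1 subunit, lay at −6.21, −7.11 and −3.33 on day 5, with 1 of 3 arrays well above background, against −1.25, −1.25 and −2.56 on day 3. Its fitted difference would rest on signals below background and is not given. Myc, a growth-promoting transcription factor, lay at −0.55, −1.52 and 0.26 on day 5, against 0.19, 0.66 and 1.18 on day 3, where replicate 5 overlapped.

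Endothelial genes were modestly lower on day 5. Of 24 tested, 13 were lower and 1 was higher at an unadjusted p under 0.05, 7 had every day 5 array below day 3, and the median difference was −0.58. The 13 lower became 6 without day 5 replicate 2, against 7.88% of all genes in either direction. Within slide 3 the median difference was −0.48. Pecam1, an adhesion protein of endothelial junctions that leukocytes and platelets also carry, lay at −1.79, −1.33 and −0.99 on day 5, against 0.01, −0.19 and −0.42 on day 3. The days did not overlap, and the difference was −1.17 ± 0.35 with an adjusted p of 0.20. Vascular endothelial cadherin (Cdh5) lay at −1.26, −1.15 and −0.30, against 0.41, 0.03 and 0.04 on day 3, and the VEGF receptor Kdr at 6.81, 6.54 and 6.72, against 7.58, 7.30 and 7.54. Neither overlapped, with adjusted p of 0.22 for Cdh5 and 0.19 for Kdr. Ehd3, a marker of glomerular endothelium, lay at 0.35, 0.19 and 0.28, against 1.04, 0.94 and 1.25 on day 3 and a day 0 mean of 2.66. Endothelin 1 (Edn1), a vasoconstrictor peptide, lay at −1.24, −1.48 and −0.23, against 1.02, 1.18 and 0.57, with an adjusted p of 0.09. The fatty acid carrier Fabp4, of endothelium and macrophages, was well above background on 1 of 3 day 5 arrays. Against these, claudin 5 (Cldn5), a tight junction protein, was higher on day 5, at 3.88, 3.99 and 3.22, against 2.93, 3.19 and 3.08 on day 3, with an adjusted p of 0.35.

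Mesangial and pericyte genes differed between the day 5 arrays as much as between days. Their mean level was 0.63, 0.59 and 1.44 on day 5, against 0.71, 0.56 and 0.43 on day 3, so only replicate 5 stood above day 3. Of 19 tested genes, 5 were higher and 0 were lower at an unadjusted p under 0.05, and 0 passed. Their median difference of 0.45 was 0.072 without replicate 5 and 0.19 under normexp. Thy1, the target of the antibody, lay at −1.23, −1.18 and 0.42 on day 5, against −0.17, −0.34 and −1.12 on day 3, with a day 1 mean of −3.34 and a day 0 mean of −0.09. The days overlapped and the difference was −0.12 ± 0.59 with an adjusted p of 0.96. Integrin α8 (Itga8), a mesangial matrix receptor, lay at −2.08, −2.54 and −2.39 on day 5, against −3.76, −3.35 and −3.49 on day 3, with no overlap and means of −4.69 on day 1 and −1.04 on day 0. Its difference was 1.20 ± 0.48 with an adjusted p of 0.30, and its 3 probes ranged from 0.75 to 1.46. The angiotensin receptor Agtr1a lay at 2.89, 2.75 and 2.78, against 1.98, 1.88 and 1.94, a difference of 0.87 ± 0.23 with an adjusted p of 0.16. Pdgfrb, the receptor for the mesangial growth factor PDGF-B, lay at 1.67, 1.22 and 2.50, against 1.53, 1.23 and 1.35, and overlapped. Sfrp2, a secreted modulator of Wnt signals, differed by 1.02 with an adjusted p of 0.27.

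Contractile genes of smooth muscle, which injured mesangial cells take up, were lower on day 5 replicates 2 and 4 and higher on replicate 5. The mean level was 1.76, 2.01 and 3.30 on day 5, against 3.09, 2.95 and 2.67 on day 3. Measured against the day 3 arrays, 11 and 9 of 12 genes lay below all of them on replicates 2 and 4. On replicate 5, 9 lay above all of them. Of all genes, 25.9% on replicate 2 and 24.9% on replicate 4 lay below, and 24.6% on replicate 5 lay above. Tagln, an actin-bundling protein, lay at 0.80, 1.45 and 4.75, against 4.01, 3.99 and 3.74 on day 3, with a difference of −1.58 ± 0.88 and an adjusted p of 0.46. It was −0.81 without replicate 2 and −2.78 without replicate 5. The median of the list was −0.53, but −0.18, −0.23 and −0.89 without day 5 replicates 2, 4 and 5. The tropomyosin Tpm2 lay at 3.67, 3.91 and 7.47, against 6.68, 6.44 and 6.20. Smooth muscle myosin (Myh11) had no such split, at −0.90, −0.85 and −0.69, against −0.01, 0.01 and −0.23, with no overlap and an adjusted p of 0.12. The actin gene Acta2 had no probe under that symbol.

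Fibrillar collagen and interstitial matrix genes showed the same split. Their mean level was −0.05, 0.23 and 1.71 on day 5, against 0.90, 0.80 and 0.72 on day 3. On replicate 5, 17 of 26 genes lay above all day 3 arrays, against 24.6% of all genes. Below them lay 17 on replicate 2 and 16 on replicate 4, against 25.9% and 24.9% of all genes. The median difference of the list was −0.21, but 0.10 under normexp, 0.07 without day 5 replicate 2 and −0.52 without replicate 5. Collagen I (Col1a1) lay at 0.44, 1.23 and 4.13 on day 5, against 4.56, 3.49 and 2.28 on day 3, and its 3 probes gave differences of −1.51 to −0.37. Collagen III (Col3a1) lay at −0.18, 0.72 and 3.92, against 1.21, 0.92 and −0.20, with a difference of 0.84 ± 0.81 that came to −0.37 without replicate 5. Fibronectin (Fn1), an adhesive glycoprotein of the mesangial matrix, lay at 2.67, 2.56 and 4.46, against 3.19, 2.67 and 3.07, and the collagen cross-linking enzyme Lox at −1.52, −1.34 and 1.47, against −1.72, −1.82 and −1.68. For all 4 genes replicate 5 was the highest day 5 array, and for Col3a1, Fn1 and Lox it was the highest of the 6. The proteoglycan biglycan (Bgn) lay at 6.20, 6.23 and 7.08, against 5.75, 5.47 and 5.83, so that all day 5 arrays were above day 3, with an adjusted p of 0.23.

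Basement membrane genes had a median difference of 0.01 over 17 tested, which turned to −0.11 under normexp. Collagen IV (Col4a1), which lines capillaries and mesangium, lay at 4.22, 4.21 and 5.35 on day 5, against 4.97, 4.53 and 4.92 on day 3, with an adjusted p of 0.82. Its 2 probes differed in sign, at −0.21 and 0.16. The laminin chain Lama1 was higher on every day 5 array, at −2.81, −2.70 and −3.90, against −3.93, −4.37 and −3.97, with replicate 5 the nearest to day 3. Its difference of 0.95 ± 0.31 was 0.79 without replicate 2 and 1.33 without replicate 5.

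Growth factors and their receptors had a median difference of −0.09 over 34 tested genes. Transforming growth factor β1 (Tgfb1), which induces matrix, lay at −1.73, −1.93 and −0.76 on day 5, against −0.80, −1.31 and −0.89 on day 3, a difference of −0.47 ± 0.38. Its relative Tgfb3 lay at −3.29, −3.36 and 0.32, against −0.28, −0.03 and 0.10, with a difference of −2.04 ± 0.85 that was −1.45 without replicate 2 and −3.25 without replicate 5. Activin A subunit Inhba lay at −2.29, −1.46 and 1.55, against 1.24, 1.40 and 1.27, with an adjusted p of 0.39. For each of the genes Tgfb1, Tgfb3 and Inhba, replicate 5 was the highest of all 6 arrays.

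Podocyte genes were near their day 3 level. The median difference over 27 tested of 29 was 0.09, close to the 0.06 of all genes, and turned to −0.14 under normexp, with 0 lower and 3 higher at an unadjusted p under 0.05. Nephrin differed by 0.27 ± 0.21 with an adjusted p of 0.62. Synaptopodin (Synpo), an actin regulator of foot processes, lay at −0.01, 0.46 and −0.30 on day 5, against −0.60, −0.55 and 0.07 on day 3, with overlap, a difference of 0.41 ± 0.33 and an adjusted p of 0.63. Podocalyxin (Podxl), the charged surface protein of foot processes, lay at 7.73, 7.94 and 7.48, against 7.02, 7.36 and 7.08, with no overlap and an adjusted p of 0.21. The surface peptidase Mme lay at 2.43, 2.44 and 2.11, against 1.10, 1.67 and 1.53, also without overlap, with an adjusted p of 0.25.

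Genes of the loop, distal tubule and collecting duct were higher on day 5 on all 3 arrays, and no other list of the 33 had as large a share of tested members with every day 5 array above day 3. Their mean level was 2.34, 2.34 and 2.23 on day 5, against 1.57, 1.57 and 1.53 on day 3, and 2.11 on day 0. All 18 tested of 19 had a higher day 5 mean, 10 had an unadjusted p under 0.05 and 15 had no overlap between the days. The median difference was 0.80, 0.82 without replicate 5, 0.77 within slide 3 and 0.42 under normexp, and 0 passed with all arrays. Under normexp the median of all genes was itself 0.28, against 0.06 with the main values. In that setting 3 of the 18 had an unadjusted p under 0.05. Uromodulin lay at 8.71, 8.76 and 8.43 on day 5, against 7.87, 7.98 and 7.92 on day 3, with a day 0 mean of 8.36, a difference of 0.71 ± 0.22 and an adjusted p of 0.21. Hsd11b2, which shields the mineralocorticoid receptor from cortisol and corticosterone, lay at 6.02, 5.96 and 6.0, against 5.43, 4.39 and 4.33. The vasopressin receptor Avpr2 lay at 0.02, 0.06 and −0.03, against −0.70, −1.13 and −1.42, and claudin 16 (Cldn16), a magnesium channel of the thick limb, at −1.03, −0.69 and −1.20, against −2.10, −1.62 and −1.72. Both had an adjusted p of 0.14. What tubular RNA in the preparations contributes to the other lists was not tested.

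Proximal tubule genes overlapped between the days. Their mean level was 5.48, 5.13 and 4.43 on day 5, against 4.43, 5.07 and 5.38 on day 3, and the median difference of 0.22 over 23 tested genes turned to −0.20 under normexp, −0.27 with slide as a fixed block and −0.03 without day 5 replicate 2. Megalin (Lrp2) lay at 6.41, 6.24 and 5.37 on day 5, against 5.59, 5.81 and 5.96 on day 3, a difference of 0.22 ± 0.29.

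Genes of fatty acid oxidation and ketone synthesis split the day 3 arrays instead. The mean level was 2.37, 2.29 and 1.95 on day 5, against 1.70, 3.29 and 3.60 on day 3, so day 3 replicate 2 lay below all of day 5. Pdk4, a kinase that spares glucose in fasting, lay at −0.23, −0.71 and 0.39 on day 5, against −1.24, 3.49 and 3.64 on day 3. The difference was −2.15 ± 0.89 with an adjusted p of 0.32, and it was −3.75 without day 3 replicate 2, the array that lay with day 5. The liver and gut transcription factor Creb3l3, which drives genes of fasting, lay at −3.78, −3.77 and −3.95, against −2.83, 1.31 and 1.67, with no overlap and a difference of −3.88 ± 0.78 (adjusted p 0.09). Without day 3 replicate 2 it was −5.32. The list median of −0.35 was −0.83 without day 3 replicate 2, −0.079 without day 3 replicate 4, −0.17 without day 5 replicate 5, −0.97 within slide 3 and −0.76 under normexp. These genes therefore differed by at least as much within day 3 as between the days.

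Oxidative phosphorylation genes were slightly higher on day 5. Their mean level was 5.22, 5.14 and 4.72 on day 5, against 4.65, 4.68 and 4.70 on day 3, with no overlap. The median difference was 0.36 over 32 genes, 31 of which were higher, but −0.12 under normexp, with 8 genes at an unadjusted p under 0.05 and 12 with no overlap. Without day 5 replicate 2 that 8 became 1, against 7.88% of all genes in either direction. Within slide 3 the median difference was 0.34. The complex subunit Ndufa4 lay at 7.56, 7.46 and 7.24, against 6.75, 6.95 and 6.97 on day 3, and cytochrome c1 (Cyc1) at 3.47, 3.59 and 2.81, against 2.62, 2.63 and 3.00. Replicate 5 was the lowest of day 5 for both, and Cyc1 overlapped. Cholesterol synthesis genes had a median difference of 0.39 over 18 tested, with 4 higher at an unadjusted p under 0.05. That median was 0.18 without day 5 replicate 4, 0.22 without day 3 replicate 4, 0.20 under normexp and 0.66 within slide 3. Mvd, an enzyme of the mevalonate pathway, lay at 1.27, 1.68 and 1.21, against 1.03, 0.55 and 0.54. Cytosolic ribosomal protein genes had a median of −0.06 over 32 genes, with 0 at an unadjusted p under 0.05.

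The remaining lists had small medians with all arrays. The red cell and platelet genes had a median of −0.26 over 10 tested, with 2 lower and 1 higher at an unadjusted p under 0.05, but 0.10 without replicate 5. The matrix proteases and their inhibitors had a median of −0.14 over 17, with 3 lower and 0 higher. For heme and oxidative stress genes it was −0.05 over 16, and for 12 reference genes −0.02, with 0 at an unadjusted p under 0.05. The parietal epithelial genes, of the cells that line Bowman's capsule, had a median of 0.35 over 11, with 1 lower and 2 higher. Among these remaining lists, 3 positive medians turned negative under normexp. They were those of the unfolded protein response (0.08, against −0.27 under normexp), glycolysis (0.13, against −0.23) and the lysosomal proteases (0.15, against −0.30).

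**Figure D5:**
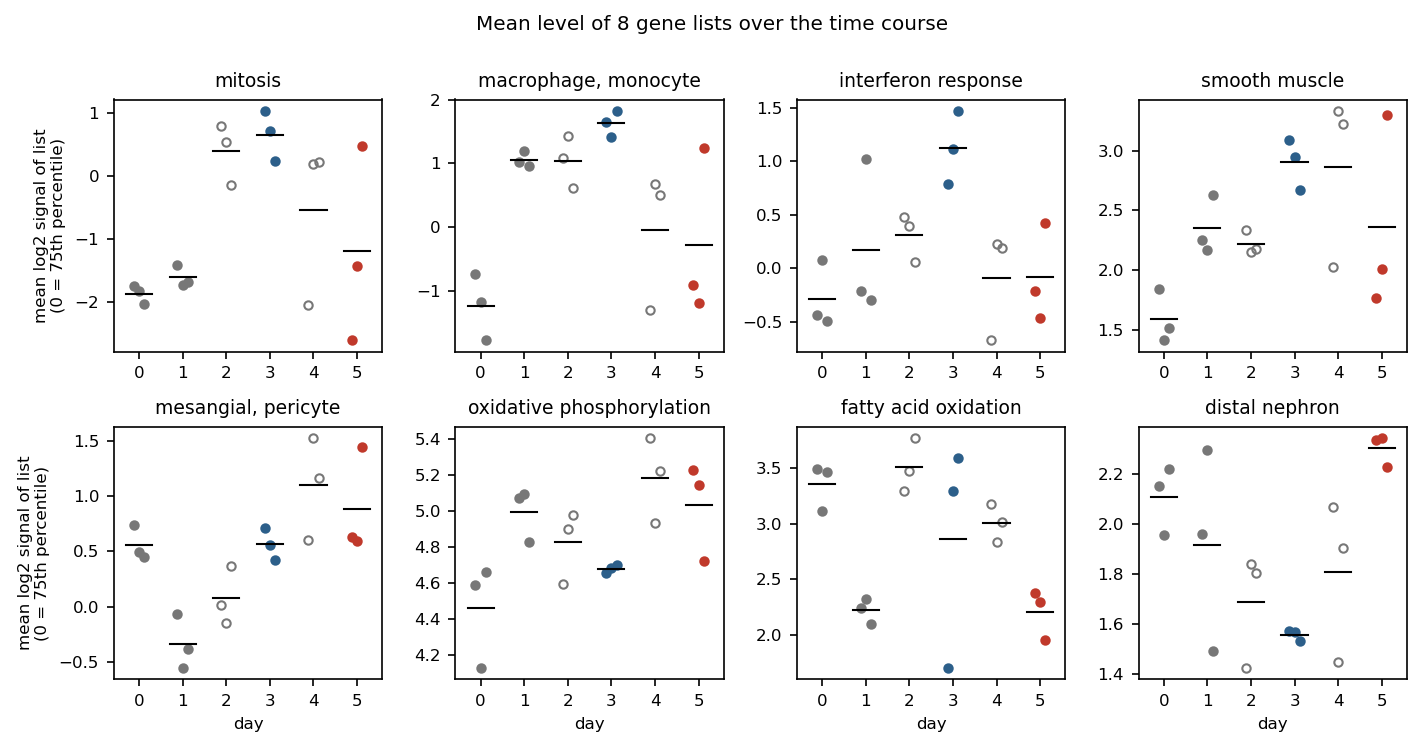
Mean level of the tested members of 8 gene lists on each array over days 0 to 5 (x axis). The y axis is log2 processed intensity minus the 75th percentile. Filled points are arrays of scan day 1 and open points those of days 2 and 4 on scan day 2. A short line gives the mean of each day. Mitosis and macrophage genes have their highest means on day 3, and the day 5 arrays are widely spread, with replicate 2 below day 0 for mitosis.

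Set beside the other time points, the day 5 arrays spread widely for genes of dividing and infiltrating cells. For mitosis, replicate 2 at −2.62 lay below all day 0 arrays and replicate 5 lay within day 3. For macrophage genes, replicates 2 and 4 lay within or near the day 0 range and replicate 5 just below day 3. The mean of the mitosis genes was −1.88 ± 0.14 on day 0, −1.62 ± 0.17 on day 1, 0.66 ± 0.40 on day 3 and −1.19 ± 1.56 on day 5 (SD, n = 3 arrays each). The macrophage genes had means of −1.23 ± 0.52 on day 0, 1.06 ± 0.12 on day 1, 1.63 ± 0.20 on day 3 and −0.29 ± 1.33 on day 5. On day 5 the SD was the largest of these 4 days for both lists. Day 4, of scan day 2, had mitosis means of −2.05, 0.19 and 0.22, so that 1 of its arrays lay just below day 0. A part of the scan day in values of days 2 and 4 cannot be told apart from the day. The distal nephron genes had means of 2.11 ± 0.14 on day 0, 1.92 ± 0.40 on day 1, 1.56 ± 0.02 on day 3 and 2.30 ± 0.06 on day 5, and the podocyte genes 2.40 ± 0.06, 2.16 ± 0.19, 2.26 ± 0.11 and 2.37 ± 0.10 on the same days.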

How the data were processed

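Glomerular RNA was measured on 18 arrays of 1 colour, 3 for each of days 0 to 5. Per the file headers, the authors made the intensity values with Agilent Feature Extraction 10.7.3.1 and build rn4: processed intensity is background-subtracted and detrended within an array, with no scaling between arrays. The deposited value table holds log2 values, with steps not given in the sources used here; their medians of 5.49 (days 0, 2 and 4) and 5.31 (days 1, 3 and 5) show separate scaling of 2 sets, and it served only as an alternative. Here processed intensity was converted to log2 minus the array's 75th percentile. Control spots and outlier spots (80 to 142 an array) were left out. A probe was kept if well above background on all arrays of at least 1 day (27826 of 41012), and each gene was represented by its brightest probe on average over the 18 arrays (23177 genes, 56 missing values). Symbols came from RefSeq annotation of another build (21786 probes matched, 19226 did not). All 18 arrays in 6 day groups were fitted with limma 3.58.1 in R 4.3.3 (package data.table, version 1.17.8), without covariates, and the scripts were tested on simulated data. For probes dim on every array of a day, values under the lowest signal well above background on their array were raised to it. The fold given from them is not a strict bound, as a dim probe can lie above that signal. The number of arrays limits the precision.

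The lists, the markers named whatever their values, and the tests were chosen with earlier results of these data known. The genes named are those that passed, such markers, and, where under 5 passed in a direction, the 5 of lowest p in it; 63 further list members were named after their values were seen. Some results are not reported here. Replicate numbers 2 and 4 occur on both days, but nothing in the labels pairs them, and same-numbered arrays correlated at −0.14 and 0.15 in their deviations from the day means.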

Additional observations from a re-analysis of the deposited data

How the results depend on the processing

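The count of 2 genes that passed became 1 under quantile normalization, scaling to the reference genes, no filter on dim probes and a fit of the 6 arrays alone, and 0 under normexp and with the deposited table, where 1841 and 2889 genes had an unadjusted p under 0.05. In the fit of the 6 arrays alone, the gene that passed was neither of the 2. Scaling to the median, a filter on days 3 and 5 and slide as a random block gave the same 2. With slide as a fixed block, where day 3 rests on replicate 4 alone, 28 passed (22 lower, 6 higher), none of them among the 2. Leaving out 1 array, with the most calls without day 5 replicate 5, gave 0 to 918 genes and 0 to 114 list members. It gave 0 to 21 of the 42 genes named by rule, which do not include the 63 further list members. List members numbered 0 in every other alternative. Of the named genes, 1 passed under quantile normalization, scaling to the reference genes, no filter and the 6 arrays alone, and 0 under normexp, slide as a fixed block and the deposited table. With the replicate number as a block, 0 genes and 0 named genes passed (2398 genes at an unadjusted p under 0.05, 10.3%).

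Normexp moved the median of all genes to 0.28 and turned the sign of A_44_P415155 (0.37), Mcm5 (0.19), Fos (0.064), Pdgfrb (−0.056), Fn1 (−0.26), Nphs1 (−0.29), Lrp2 (−0.28), Ifit1 (0.16), Ccr1 (0.10), Itgal (0.29), Cdkn1c (−0.070), Podxl (−0.0083), Ndufa4 (−0.036) and Mmp9 (0.24). Slide as a fixed block turned Thy1 (0.46) and Synpo (−0.019). Leaving out 1 array gave ranges that cross 0 for Thy1 (−0.66 to 0.16), Fos (−1.19 to 0.27), Fn1 (−0.36 to 0.59), Col3a1 (−0.37 to 1.67), Lcn2 (−1.55 to 0.026) and Mmp9 (−1.01 to 0.28). The cause of each change was not tested. Over all alternatives 1673 single-gene values kept direction and side of the threshold, 16 lost the call, 72 gained it and 24 changed sign; 539 list medians moved by less than the spread between arrays and 22 by more. With 3 arrays a day, of which 1 day 5 array resembles day 3, a p that misses the threshold does not show equal levels. Dim probes such as A_44_P415155, Fosl1 and Ifit1 have little signal over background on day 5.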
